A study of Mus musculus with 8 samples.

Results

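The 9 genes described here encode cytokine and niche receptors of hematopoietic stem cells: Kit, Flt3, Tek, Cxcr4, Il6st, Ifngr1, Csf2rb, Tgfbr2 and Cd34. They were chosen by name and followed through 8 single-cell tables whose union holds 18174 gene symbols. Each table is 1 library of long-term hematopoietic stem cells, abbreviated LT-HSC, taken from marrow of untreated wild-type male C57BL/6J mice aged 18 months. The cells had been sorted as lineage-negative, CD150+, CD48-, CD34-, Kit+ and Sca1+, and in addition as Dlk1+ (4 libraries) or Dlk1- (4 libraries). Dlk1 is a surface protein related to the Notch ligands. The marrow cells came from several pooled bones, and nothing in the labels ties a library to a mouse, so the p-values measure only the spread between libraries, which may be technical.

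Kit, Flt3 and Tek are receptor tyrosine kinases. Kit binds stem cell factor and marks stem and early progenitor cells, Flt3 marks lymphoid-primed multipotent progenitors and is low on LT-HSC, and Tek (Tie2) is the receptor of the angiopoietins on endothelium and on quiescent stem cells. Il6st (gp130), Ifngr1 and Csf2rb are chains of cytokine receptors that signal through Janus kinases, Tgfbr2 is the receptor kinase that binds transforming growth factor beta, and Cxcr4 is the chemokine receptor through which Cxcl12 holds stem cells in the marrow. Cd34 is a sialomucin rather than a signalling receptor, and its absence from the surface separates adult mouse LT-HSC from short-lived progenitors.

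Cells had been sorted into single wells, and transcripts were read at their 3' ends by mCEL-Seq2 with unique molecular identifiers (UMIs), so each molecule counts once and a level does not scale with transcript length. A level in CPM is the number of transcripts of a gene for every 1000000 transcripts of the kept cells of a library. The Dlk1+ libraries 1 to 4 kept 86, 27, 26 and 81 cells and the Dlk1- libraries 96, 36, 95 and 94, 541 in all (220 Dlk1+ and 321 Dlk1-). Median transcripts per cell ran from 3421 to 5584 in 7 libraries. Dlk1+ replicate 3 stood apart with a median of 1300 and only 39073 transcripts in all, where the other libraries held from 102499 to 517559. Of 86 barcodes of its sort only 4 had under 200 transcripts, so most lay between 200 and the 1000 needed to be kept. Its kept cells are thus the deeper part of that library. In Dlk1+ replicate 2, 57 of 86 had under 200 transcripts. In Dlk1+ replicate 3 the limit that a count of 0 allows (3 UMIs) is 76.8 CPM. Dlk1 transcripts were at 358 to 639.7 CPM in the Dlk1+ and 3.86 to 50.3 CPM in the Dlk1- libraries, so the 2 sets of libraries did not overlap and ran in the direction of the labels. A single cell of Dlk1+ replicate 4 also stood apart: it carried 36327 UMIs, 8.07% of its library, against at most 14443 in any other cell. This cell held 1703 of the UMIs of the 6 myeloid marker genes fixed for the analysis (S100a8, S100a9, Elane, Ly6g and Itgam, with no UMI of the sixth, Lyz2), and the other 540 cells together held 28. The 96 well barcodes of a library come from a fixed set used again in every library, so shared barcodes mark no shared cells.

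The transcripts were first compared with the surface proteins used in the sort. Kit RNA was found in most cells of 7 libraries, while Cd34 RNA was less frequent but was present although the cells had been sorted as CD34-. In the Dlk1+ libraries 1 to 4, Kit had a UMI in 76.7%, 66.7%, 15.4% and 85.2% of cells, and in the Dlk1- libraries 1 to 4 in 82.3%, 88.9%, 75.8% and 86.2%. The low value is that of the shallow Dlk1+ replicate 3, with 4 of 26 cells (95% Wilson interval 6.15% to 33.5%). Cd34 had a UMI in 17.4%, 18.5%, 0% and 23.5% of cells in the Dlk1+ libraries and in 21.9%, 25.0%, 21.1% and 21.3% in the Dlk1- libraries. Outside Dlk1+ replicate 3, the Cd34 shares thus lay within a narrow range in both sorts. In Dlk1+ replicate 3 there was no Cd34 UMI in 26 cells, which allows up to 11.5% of cells with a UMI at the depth of that library. Over all libraries together, 421 of 541 cells (77.8%) had a Kit UMI and 109 (20.1%) a Cd34 UMI. These intervals and limits cover counting error only.

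Because detection depends on depth, shares were also taken at an equal depth of 1000 UMIs per cell, which every kept cell reached. The 1000 UMIs include those of Gm10800 and Gm26870, which made up 10.1% to 32.8% of the transcripts of a library. The depth left for other genes was therefore not fully equal. At this depth Kit was expected in 32.1% ± 8.58 of cells (SD, n = 8 libraries) and Cd34 in 4.50% ± 1.87. The difference within a library was 27.6 ± 7.10 percentage points, from 12.7 in Dlk1+ replicate 3 to 33.1 in the library where it was widest, and Kit was ahead in 8 of 8 libraries. A two-sided exact sign-flip permutation test over the 8 libraries gave p = 0.0078, the smallest value that test can give. The test compares detection of 2 different genes within sorted cells. Without unsorted or CD34+ cells as a reference, it cannot measure agreement of the RNA with the sort. Where both were found, the Kit level was 4.00 to 9.59 times the Cd34 level in CPM (7 libraries).

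The other sort markers followed in the order Ly6a, Slamf1 and Cd48. Ly6a, which encodes Sca1, was expected in 15.1% ± 5.36 of cells at 1000 UMIs (SD, n = 8) and Slamf1, which encodes CD150, in 6.93% ± 2.13. Slamf1 RNA, whose protein was required to be present, was therefore only 2.43 ± 3.64 points more frequent than Cd34 RNA, whose protein was required to be absent. In 7 of 8 libraries Slamf1 was the more frequent, and the gap in the eighth was -0.10 points. Cd48 was found with 5 UMIs in all, every one in the myeloid-rich cell of Dlk1+ replicate 4. The other 540 cells had none, which allows up to 0.556% of cells with a UMI at this depth and sets no limit on cells that transcribe the gene. Of 6 lineage marker genes in the list, 4 had no UMI in a kept cell. Itgam (CD11b) had 28 UMIs in 8 cells and Ly6g 4 UMIs in 1 cell. The myeloid-rich cell held most of the Itgam and all of the Ly6g UMIs. The RNA of the 2 negative gates thus differed in frequency: Cd48 had UMIs in 1 cell and Cd34 in 109.

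**Figure D1:**
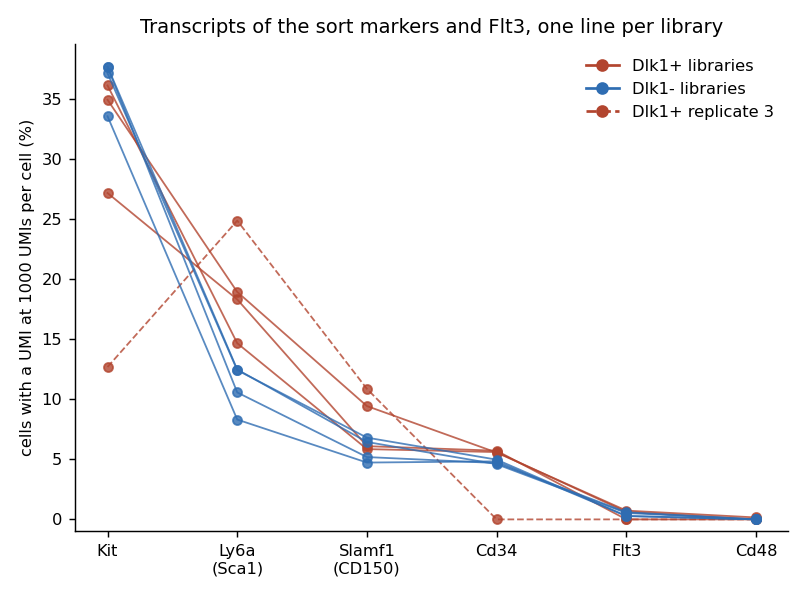
Share of cells expected to carry a UMI at an equal depth of 1000 UMIs per cell (y axis, percent) for Kit, Ly6a, Slamf1, Cd34, Flt3 and Cd48 (x axis), with 1 line per library. Kit lies above Cd34 in all 8 libraries; Dlk1+ replicate 3 (dashed) has the lowest Kit share, 12.7%, and the highest Ly6a share, 24.9%.

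Cells with and without a Cd34 UMI were compared within the 7 libraries that had both (109 and 406 cells). Kit was at 469.8 ± 96.3 UMIs per 1000000 in the cells with Cd34 and at 419 ± 64.7 in those without (SD, n = 7 libraries), and was higher with Cd34 in 5 of 7 libraries. A list of 6 progenitor genes (Flt3, Cd48, Cd27, Mpo, Ctsg and Satb1) ranged from 109 to 2007 per 1000000 with Cd34 and from 127 to 202 without, and was higher with Cd34 in 6 of 7 libraries. The highest of these values belongs to Dlk1+ replicate 4 and was 411 without the myeloid-rich cell, which also had 1 Cd34 UMI. That cell held all 161 Mpo and all 5 Cd48 UMIs of the kept cells, and the 65 Ctsg UMIs came from 1 library. Cd27 had 407 UMIs, Satb1 19 and Flt3 13, so outside that cell the list was mostly Cd27. A list of 7 stem cell genes (Ly6a, Slamf1, Procr, Mecom, Hlf, Mllt3 and Hoxa9) was at 1172 ± 209 per 1000000 with Cd34 and 1456 ± 257 without (SD, n = 7 libraries), and was lower with Cd34 in 7 of 7 libraries, in Dlk1+ replicate 2 by 1333 against 1334. The list as fixed for the analysis had 8 genes, of which 1 is not reported here. With all 8 genes it was higher with Cd34 in 1 of 7 libraries, Dlk1+ replicate 2. The cells with Cd34 were deeper, with median UMIs of 4528 to 6850 against 3204 to 4988, and the part of depth in these differences was not tested. No test was made, because the cells were divided by one of the genes measured.

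The 9 receptors differed widely in level. Mean levels over the 8 libraries were 382 ± 116 CPM (SD) for Kit, 81.4 ± 22.1 for Ifngr1, 49.9 ± 22.3 for Cd34, 48.4 ± 54.3 for Il6st, 38.7 ± 20.9 for Cxcr4, 33.2 ± 11.8 for Tgfbr2, 18.2 ± 12.0 for Tek, 4.67 ± 3.75 for Csf2rb and 3.82 ± 3.05 for Flt3. Among all 18174 symbols Kit had rank 229 and Flt3 rank 10928. Kit lay above Ifngr1 in 7 of 8 libraries, and both had 5 UMIs in Dlk1+ replicate 3; the mean gap was 300.5 ± 131 CPM. Ifngr1 lay above Cd34 in 7 of 8, but the mean gap of 31.4 CPM was smaller than its SD of 42.6. Cd34, Il6st, Cxcr4 and Tgfbr2 followed with gaps between neighbours of 1.55, 9.67 and 5.54 CPM, each smaller than its SD. Tgfbr2 exceeded Tek by 15.02 ± 8.23 CPM (7 of 8 libraries). The gap between Tek and Csf2rb (13.5 ± 13.8) and that between Csf2rb and Flt3 (0.846 ± 4.74) were again within the spread.

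Among the receptor tyrosine kinases, Kit (chromosome 5, 75574916 to 75656722, plus strand, mm10) was at 419.7, 312, 128 and 401 CPM in the Dlk1+ libraries 1 to 4. In the Dlk1- libraries 1 to 4 it was at 423, 499, 404 and 468 CPM. The groups overlapped, and the value of 128 rests on 5 UMIs. In the cells that had Kit, 300 of 421 carried more than 1 Kit UMI and the highest number was 10.

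Flt3 (chromosome 5, 147330741 to 147400489, minus strand) was at 5.06, 0, 0 and 8.76 CPM in the Dlk1+ and 1.93, 4.34, 4.21 and 6.29 CPM in the Dlk1- libraries. This amounts to 13 UMIs in 11 of 541 cells (2.03%). All 11 cells also had Kit UMIs and 4 had Cd34 UMIs. They did not include the myeloid-rich cell. Flt3 overlaps Gm26597 on the other strand, which had 2 UMIs.

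Tek (chromosome 4, 94739289 to 94874976, plus strand) was at 12.6, 0, 25.6 and 28.5 CPM in the Dlk1+ and 15.5, 4.34, 25.2 and 33.5 CPM in the Dlk1- libraries. In both sorts replicates 3 and 4, which shared plate 6, were higher than replicates 1 and 2 of plate 5, although the value of Dlk1+ replicate 3 rests on 1 UMI. Tek UMIs were in 52 cells (9.61%), and 48 of these had only 1. Endothelial cells also express Tek, Cd34 and Kit, and the 7 endothelial markers fixed for the analysis summed to 273 to 538 CPM in the Dlk1+ and 280.2 to 423 CPM in the Dlk1- libraries. Most of this sum was Tie1 (mean 255 CPM), a relative of Tek that stem cells also express, while Egfl7 was at 36.2, Pecam1 at 26.5, Emcn at 18.4 and Kdr at 14.8 CPM, Cdh5 had no UMI and Plvap had 3. The part of endothelial RNA in the Tek, Cd34 and Kit levels was not tested. Mast cells are another Kit-rich type. Their 6 markers summed to at most 10.9 CPM in any library, and 4 of them had no UMI in a kept cell.

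Of the 3 cytokine receptor chains among the 9 genes, Ifngr1 (chromosome 10, 19591949 to 19610229, plus strand), the ligand-binding chain for interferon gamma, was the most abundant. It was at 80.9, 58.5, 128 and 87.6 CPM in the Dlk1+ and 58.0, 86.8, 71.5 and 79.7 CPM in the Dlk1- libraries. Ifngr1 UMIs were found in every library, in 160 cells (29.6%). Its partner Ifngr2 was lower, at 9.76 to 25.6 CPM.

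Il6st (chromosome 13, 112464070 to 112510086, plus strand), the chain shared by the receptors of interleukin 6, interleukin 11 and leukemia inhibitory factor, varied most between libraries. It was at 48.0, 9.76, 179 and 32.8 CPM in the Dlk1+ and 19.3, 43.4, 27.3 and 27.2 CPM in the Dlk1- libraries. The highest value rests on 7 UMIs of Dlk1+ replicate 3 and the lowest on 1 UMI of Dlk1+ replicate 2. Il6ra, the chain that binds interleukin 6, was at 12.6 to 29.3 CPM.

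Csf2rb (chromosome 15, 78325752 to 78353847, plus strand), the signalling chain for interleukin 3, interleukin 5 and GM-CSF, was at 0, 9.76, 0 and 4.38 CPM in the Dlk1+ and 1.93, 8.68, 6.31 and 6.29 CPM in the Dlk1- libraries. It had 12 UMIs in 11 cells (2.03%), of which 9 had Kit and 2 had Cd34. The near-identical gene Csf2rb2 lies 20030 bases away and has no row in any of the tables. Reads common to both genes could not be assigned from the tables, so the Csf2rb level is uncertain. The partner chain Csf2ra was more abundant than Csf2rb in every library, at 58.0 to 282 CPM.

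Tgfbr2 (chromosome 9, 116084293 to 116175360, minus strand) was at 27.8, 19.5, 51.2 and 35.0 CPM in the Dlk1+ and 36.7, 21.7, 25.2 and 48.2 CPM in the Dlk1- libraries. The value of 51.2 CPM, in Dlk1+ replicate 3, lies below the limit of 76.8 CPM of that library, where 1 UMI amounts to 25.6 CPM. Tgfbr2 UMIs were in 81 cells (14.97%). The groups covered the same range, and Tgfbr1, with which it forms the active receptor, was at 12.6 to 30.4 CPM.

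Cxcr4 (chromosome 1, 128588199 to 128592293, minus strand) was at 48.0, 39.0, 0 and 65.7 CPM in the Dlk1+ and 40.6, 30.4, 25.2 and 60.8 CPM in the Dlk1- libraries. Replicate 4 was the highest in both sorts. The genes Gm10800 and Gm26870 made up 10.1% of transcripts in Dlk1+ replicate 4 and 11.7% in Dlk1- replicate 4. In the other libraries they made up 22.8% to 32.8%, which lowers the CPM of every other gene there. The part of this in the Cxcr4 order was not tested. In Dlk1+ replicate 3 its count was 0, a value that is not distinguishable at this depth from the levels of the other libraries, all below the limit of 76.8 CPM. Cxcr4 UMIs were in 92 cells (17.01%).

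Cd34 (chromosome 1, 194938819 to 194961279, plus strand) was at 50.6, 78.1, 0 and 61.3 CPM in the Dlk1+ and 48.3, 52.1, 56.8 and 52.4 CPM in the Dlk1- libraries. The 4 Dlk1- libraries lay close together (SD 3.47 CPM), while the SD of the Dlk1+ libraries was 33.6 CPM. The limit of 76.8 CPM for Dlk1+ replicate 3 lies below the level of Dlk1+ replicate 2 and above those of the other 6 libraries.

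**Figure D2:**
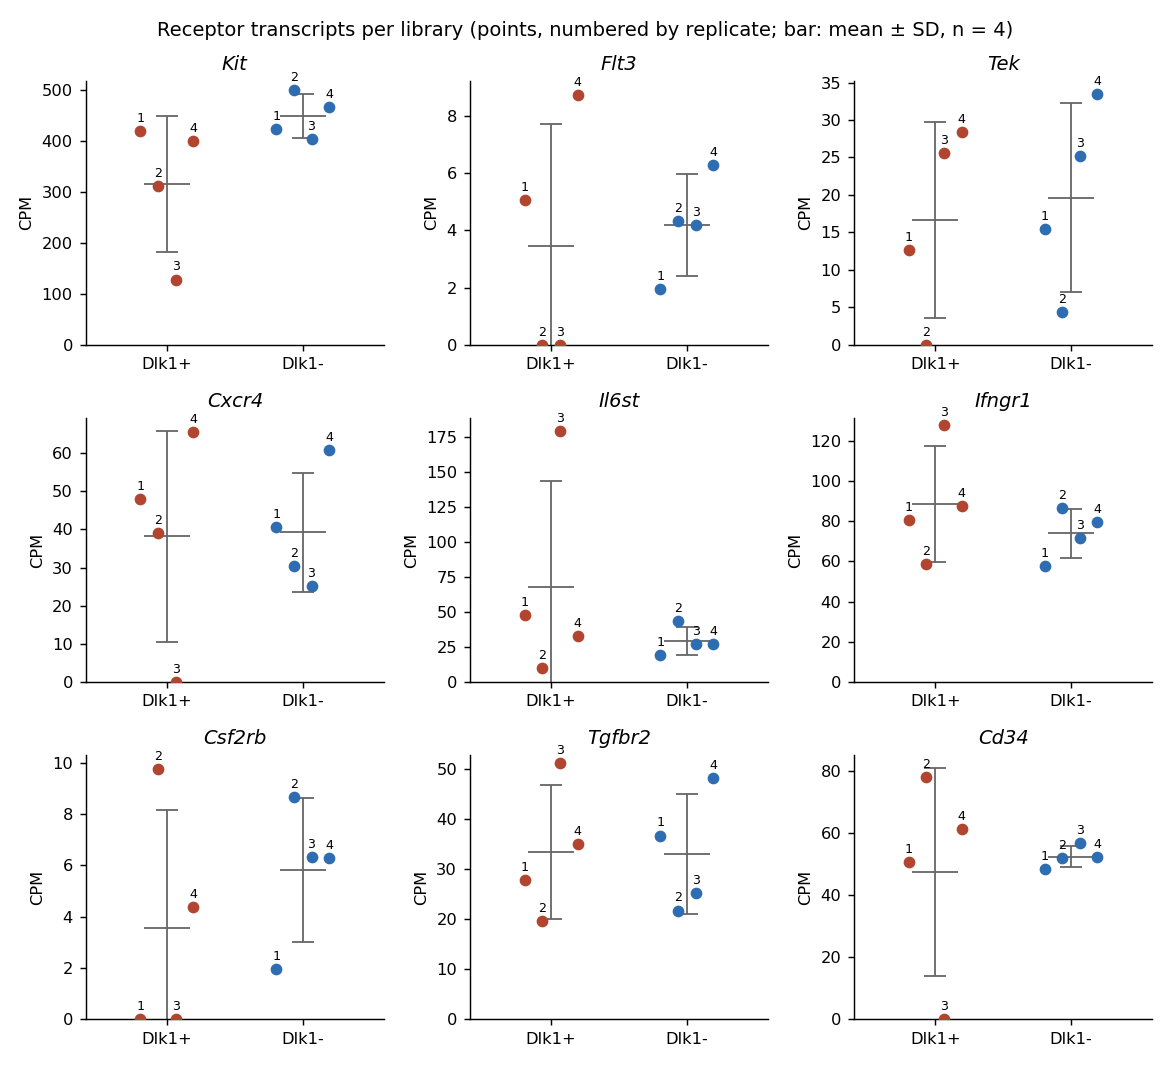
Level of each receptor in CPM (y axes, from 0 and scaled per gene) in the 4 Dlk1+ and 4 Dlk1- libraries; points are libraries numbered by replicate and bars give the mean ± SD, drawn down to 0 where they would pass it. The groups overlap for every receptor. Dlk1+ replicate 3, where 1 UMI amounts to 25.6 CPM, is lowest for Kit, Cxcr4 and Cd34 and highest for Il6st, Ifngr1 and Tgfbr2.

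Kit, Ifngr1 and Cd34 were found more often in each deeper class of cells. Kit had a UMI in 31.8% of the 44 cells with under 2000 UMIs and in 69.6% of the 161 cells with 2000 to 4000 (95% Wilson interval 62.1% to 76.1%). It was found in 87.2% of the 296 cells with 4000 to 8000 UMIs (82.9% to 90.5%) and in 92.5% of the 40 deeper cells (80.1% to 97.4%). Across the same 4 classes Ifngr1 went from 20.5% to 24.8%, 31.8% and 42.5% of cells, and Cd34 from 4.55% to 9.94%, 26.4% and 32.5%. Not every receptor followed this order: Il6st was found in 13.6% of the shallowest cells, 7.45% of the next class and 22.5% of the deepest, and Csf2rb in 8 of 296 cells with 4000 to 8000 UMIs and 0 of the 40 deepest. Of the 8 Il6st UMIs in the shallowest class, 7 came from Dlk1+ replicate 3. Only 4 of the 26 kept cells of that library reached 2000 UMIs, so depth and library cannot be told apart there. Per 1000000 UMIs, Kit was at 314, 477, 469 and 279 in the 4 classes, so that the deepest cells had the lowest Kit level although Kit was found in most of them. The value of 314 rests on 21 Kit UMIs. The deepest class includes the myeloid-rich cell, with 5 Kit UMIs among its 36327. The difference between the shallowest and the deepest class was not tested.

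Barcodes without a sorted cell held little RNA. The barcodes of each table that belong to the other sort, without the 10 named in the processing section, were 728 in number and held 23663 UMIs in all. Of these, 10 were Kit, 3 Cxcr4, 3 Ifngr1 and 1 Cd34, and the other 5 receptors had none. Kit thus made up 423 per 1000000 there and 436 per 1000000 in the kept cells, which held 2604866 UMIs. No cell type that lacks these receptors was sorted, so no background share was measured in cells.

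**Figure D3:**
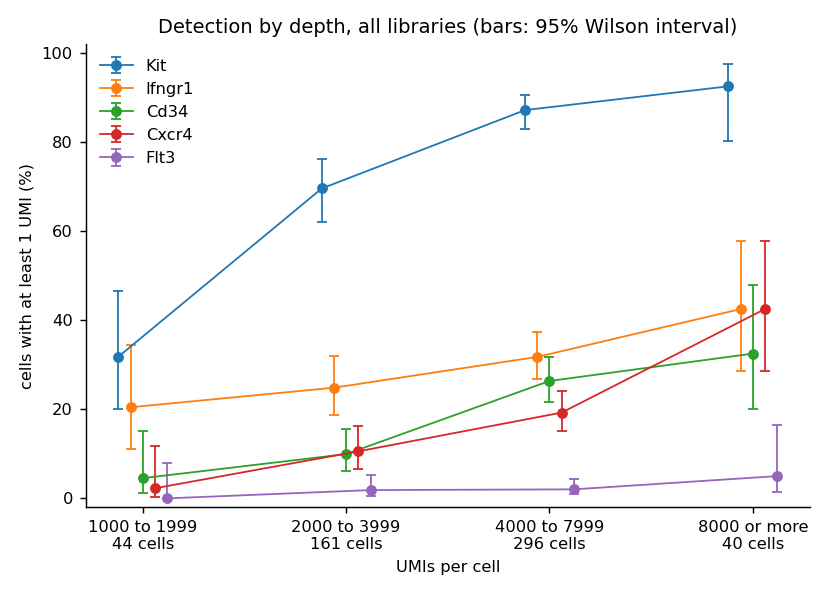
Percent of cells with at least 1 UMI (y axis) by the UMIs of the cell (x axis, with the number of cells of all 8 libraries) for Kit, Ifngr1, Cd34, Cxcr4 and Flt3; bars are 95% Wilson intervals. Kit goes from 31.8% of the shallowest to 92.5% of the deepest cells, and Flt3 stays the lowest in each class.

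In single cells, UMIs of few of the 9 receptors were found at once. Detection depends on depth, so these numbers set no limit on how many receptors a cell transcribes. With all UMIs, the mean number of receptors found per cell was 1.77, 1.30, 0.654 and 2.23 in the Dlk1+ and 1.86, 2.14, 1.79 and 2.13 in the Dlk1- libraries, and the highest number in a cell was 6. Cells with none made up 8.14%, 18.5%, 53.8% and 4.94% of the Dlk1+ and 5.21%, 11.1%, 14.7% and 6.38% of the Dlk1- libraries. At an equal depth of 1000 UMIs the Dlk1+ libraries had a mean of 0.575 ± 0.0965 receptors and the Dlk1- libraries one of 0.612 ± 0.0481 (SD, n = 4 each). The groups were compared by exact permutation of the 8 libraries (70 assignments, two-sided, no p below 0.0286 possible), and the difference of -0.0372 had p = 0.429.

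Pairs of receptors were counted over the 541 cells as a description. Kit was found in 89.9% of cells with Cd34 and in 74.8% of cells without, in 89.1% against 75.5% for Cxcr4 and in 86.5% against 76.9% for Tek. In each of these pairs the cells with the second receptor were also deeper: their median was 5167 against 4309 UMIs for Cd34, 5152 against 4449 for Cxcr4 and 5722 against 4466 for Tek. The part of depth in these shares was not tested. Both interferon gamma receptor chains had a UMI in 13 cells, gp130 and Il6ra in 11, and both chains of the transforming growth factor beta receptor in 9.

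**Figure D4:**
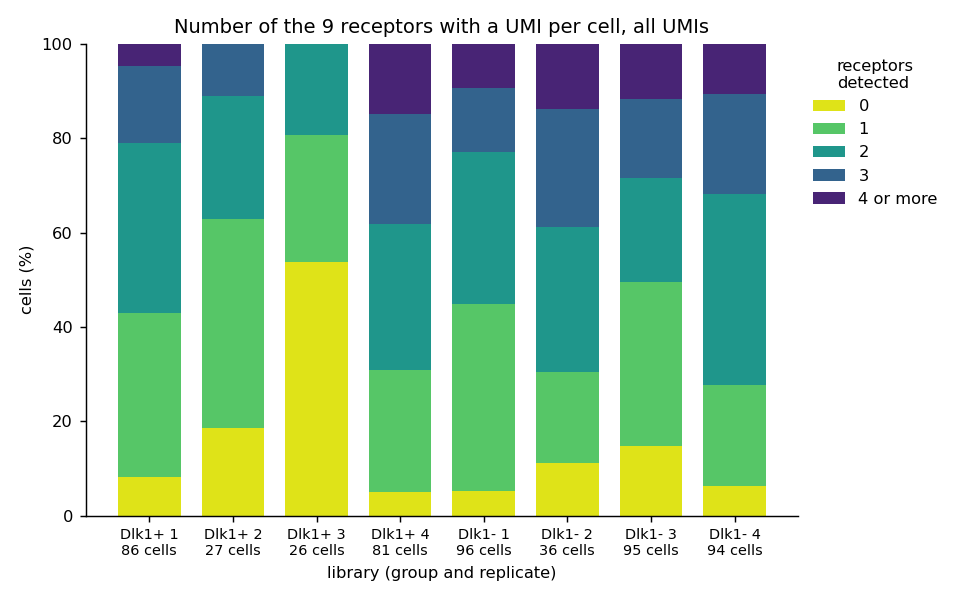
Percent of cells (y axis) in each library (x axis) by the number of the 9 receptors with at least 1 UMI, all UMIs counted. Dlk1+ replicate 3, the shallow library, has 53.8% of cells with none; in the other libraries this share is 4.94% to 18.5%.

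The receptors were then compared between the sorts. Sums over the cells of each library were compared with limma-voom, which tested 5666 genes, among them 7 receptors. Flt3 and Csf2rb were too low to pass the filter. No receptor passed an adjusted p of 0.05, against 2 genes of all those tested (0.0353%; Dlk1 and Timp3). Timp3, an inhibitor of matrix metalloproteinases, had an adjusted p of 0.0129 by limma-voom but 0.137 without Dlk1- replicate 3, 0.128 without Dlk1+ replicate 2, 0.361 from 2000 transcripts per barcode and 0.228 with the replicate number as a block, and 0.154 by limma-trend. None of the 7 had an unadjusted p under 0.05 either, where 368 genes of all did. The median log2 fold change of the 7 was 0.00, and that of all genes -0.04.

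The largest estimates among the receptors were those of Il6st and Kit. Kit was at 315 ± 133 CPM in the Dlk1+ and 449 ± 43.1 CPM in the Dlk1- libraries (SD, n = 4 each). By limma-voom its log2 fold change was -0.46 ± 0.30 (SE, adjusted p = 0.811). The 95% interval runs from 0.47-fold to 1.12-fold. Without Dlk1+ replicate 3 the Kit estimate was -0.18 ± 0.18. Kit had the lower mean in Dlk1+ cells on both plates, at 366 against 461 CPM on plate 5 and 264 against 436 CPM on plate 6. Il6st was at 67.5 ± 76.1 against 29.3 ± 10.1 CPM, and limma-voom gave 0.57 ± 0.45 on the log2 scale (adjusted p = 0.845; 0.77-fold to 2.88-fold). The plates differed, with 28.9 against 31.4 CPM on plate 5 and 106 against 27.3 CPM on plate 6, where the value of Dlk1+ replicate 3 enters.

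For the other receptors the estimates lay closer to 0. The log2 fold changes were 0.25 ± 0.41 for Cxcr4, 0.22 ± 0.27 for Ifngr1, 0.00 ± 0.34 for Tgfbr2, -0.06 ± 0.37 for Cd34 and -0.18 ± 0.54 for Tek, with adjusted p from 0.892 to 1.00 by limma-voom. The 95% intervals ran from 0.79-fold to 1.73-fold for Ifngr1, from 0.61-fold to 1.65-fold for Tgfbr2 and from 0.56-fold to 1.63-fold for Cd34, so that 2-fold changes in either direction lay outside them. They ran from 0.66-fold to 2.14-fold for Cxcr4 and from 0.40-fold to 1.94-fold for Tek, and together with those of Kit and Il6st these intervals include a 2-fold change in 1 direction. Within plates, Ifngr1 was at 69.7 against 72.4 CPM on plate 5 and at 108 against 75.6 CPM on plate 6, Dlk1+ first. Cd34 was at 64.3 against 50.2 CPM on plate 5 and 30.7 against 54.6 CPM on plate 6. Tests on 2 libraries against 2 within a plate were not made.

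The CPM ranges of the sorts overlapped for all 7 receptors, while they did not overlap for 178 of the 5666 genes (3.14%). Shares of cells at 1000 UMIs were compared by an exact permutation test of the libraries, two-sided, in which 223 of 5666 genes (3.94%) reached p of at most 0.05 and no receptor did. Ifngr1 came nearest, with 9.60% ± 2.07 of Dlk1+ and 7.38% ± 0.84 of Dlk1- cells (SD, n = 4 each; exact permutation p = 0.0571, adjusted 0.721). Without Dlk1+ replicate 2 its difference was 2.78 points with an exact permutation p of 0.0286, the smallest that 3 against 4 libraries allow. Kit was expected in 27.7% ± 10.8 against 36.5% ± 1.98 of cells (exact permutation p = 0.114, adjusted 0.740). Cd34 was expected in 4.22% ± 2.81 against 4.77% ± 0.165 (exact permutation p = 1.00). Without Dlk1+ replicate 3, the library with no Cd34 UMI, the Cd34 difference turned to 0.855 points higher in Dlk1+ cells, with an exact permutation p of 0.0286, again the smallest possible. Every receptor was tested without each library in turn, with no adjustment for the number of tests. No other of these tests reached p of at most 0.05. Without the same libraries, limma-voom gave log2 fold changes of 0.31 ± 0.29 for Ifngr1 (adjusted p = 0.89) and 0.19 ± 0.24 for Cd34 (adjusted p = 0.918).

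For the other sort markers the same measures gave higher Ly6a in the Dlk1+ libraries before adjustment only. Ly6a was at 124, 195, 307 and 217 CPM in the Dlk1+ and 108, 95.5, 90.4 and 132 CPM in the Dlk1- libraries. The limma-voom estimate was 0.82 ± 0.24 on the log2 scale (adjusted p = 0.576). Its share at 1000 UMIs was 19.2% ± 4.22 against 10.9% ± 1.97 (exact permutation p = 0.0286, adjusted 0.721, n = 4 each). Slamf1 had a log2 fold change of 0.41 ± 0.28 (adjusted p = 0.824 by limma-voom).

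**Figure D5:**
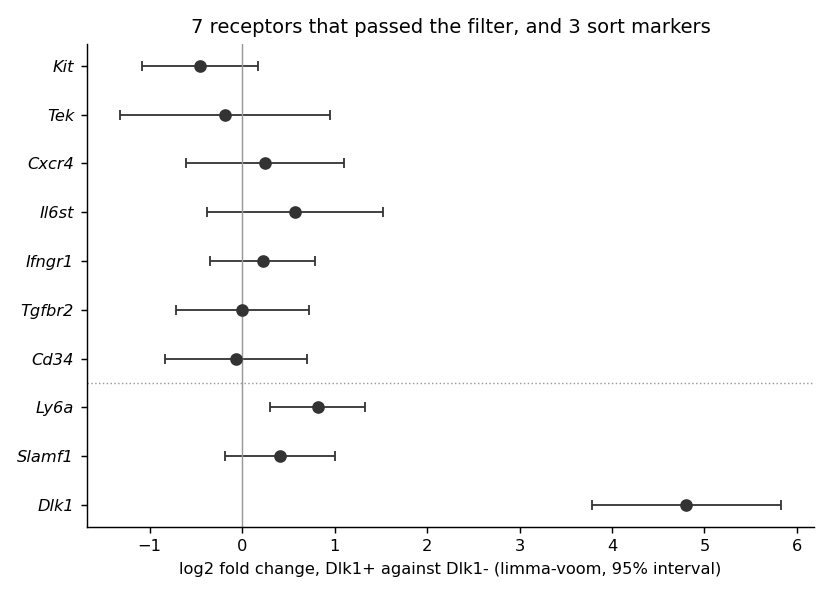
Log2 fold change of Dlk1+ against Dlk1- libraries (x axis; point with 95% interval, limma-voom, n = 4 each) for the 7 receptors that passed the filter and, below the dotted line, 3 sort markers. The intervals of all 7 receptors include 0; Dlk1, the marker that divides the sorts, lies at 4.81.

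The other genes of these pathways were read from fixed lists. Of 48 partner chains and related receptors, 45 had a row in the tables and 24 passed the filter. None was called in either direction (12 of 24 had a positive log2 fold change, median 0.01). Among the most abundant were Igf1r, the receptor of insulin-like growth factor, at 329 ± 136 CPM (SD, n = 8), Tie1 at 255 ± 112, the shared cytokine receptor chain Il2rg at 173 ± 42.8, and the adhesion receptors Itgb1 at 154 ± 38.0 and Cd44 at 130.3 ± 53.3 CPM. The mean of Igf1r thus lay within 1 SD of that of Kit, and the other 8 receptors had lower means than any of these genes.

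Of 35 genes that signal downstream of the receptors, all had a row and 29 passed the filter. None was called in either direction (14 of 29 positive, median log2 fold change 0.00). The kinase Pim1, a target of STAT5 signalling, was highest with 872 ± 296 CPM (SD, n = 8), followed by the G protein subunit Gnai2, which couples to Cxcr4, with 697 ± 181. The kinase Jak1, shared by the gp130 and interferon receptors, was at 302 ± 49.1 CPM, Stat3 at 194 ± 66.6, the G protein regulator Rgs18 at 187 ± 64.5 and the adaptor Grb2 at 173 ± 25.4.

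Ligands were rare by comparison. Of 17 ligand genes, 10 had a row, and Angpt1 was the only one that passed the filter. Angpt1, the ligand of Tek, was at 298 ± 64.4 CPM (SD, n = 8) and had a log2 fold change of -0.25 ± 0.25 (adjusted p = 0.877 by limma-voom). It was thus higher than its receptor, at 18.2 CPM, and Tek had a UMI in 9.64% of the cells with Angpt1 and in 9.55% of those without. The cells with Angpt1 were deeper, with a median of 4800 against 3648 UMIs. Tek was found in 2.27% of cells with under 2000 UMIs and in 25% of those with 8000 or more. The part of depth in the 2 shares was not tested. Flt3l, the ligand of Flt3, was at 18.1 ± 8.91 CPM, Cxcl12 at 13.6 ± 23.7, and Osm, Tgfb3 and Tgfb2 at 4.11, 3.20 and 2.31 CPM. Kitl, the ligand of Kit, had 1 UMI in all.

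Genes whose levels followed a receptor from cell to cell were looked up for the 3 most abundant members, by the mean correlation within libraries of log2(UMIs per 10000 + 1). The nearest were Itsn1, Limd2 and Tpt1 for Kit (mean r of 0.23, 0.22 and 0.22 over 8 libraries and 541 cells), and Cct4, Serinc3 and Ndufb10 for Ifngr1 (0.20 each). For Cd34 they were Polr2l, Eci2 and Pold1 (0.23, 0.21 and 0.21 over 7 libraries and 515 cells). These values are small, rest on sparse counts of cells that share library and depth, and are given as a description.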

How the data were processed

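Each of the 8 libraries pooled 96 wells of single cells. The authors' deposited values are estimated transcript counts per gene and barcode, not scaled for depth. Inverting the correction for collisions among 4096 possible UMIs of 6 bases returned whole UMIs, which were used for shares of cells. The submitters' processing notes name BWA 0.6.2-r126 and mm10; the counting program, its use of strand and the annotation are not given in the sources used here. Of 18174 symbols, 17407 matched GENCODE release M21 (mm10), from which positions were taken.

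Kept cells lay on the barcodes of their sort (1 to 96 for Dlk1+, 97 to 192 for Dlk1-), without barcodes 17, 20 to 24 and 29 to 32, and had at least 1000 transcripts. These 10 barcodes were left out in every library; in the Dlk1- libraries, whose own barcodes start at 97, they still held 25978 UMIs. No doublet caller was run. The names of the tables put replicates 1 and 2 of both sorts on plate 5, and 3 and 4 on plate 6.

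Transcripts were summed per library and tested with limma-voom (limma 3.58.1, R 4.3.3) after scaling by trimmed mean of M-values. Genes needed a CPM worth 10 counts at the median library size in 4 libraries and 15 counts in all. P-values were adjusted by Benjamini-Hochberg over the 5666 genes that passed. The planned edgeR and DESeq2 tests were not run, because the automatic check of units could not read these tables. On data simulated for this comparison with 5666 genes, limma-voom called 8.96% of 2-fold, 80.3% of 4-fold and 100% of 8-fold changes, and made 10 false calls. The simulation gave every gene the same fixed dispersion, not estimated from these libraries, and no plate effect. In that setting 2-fold changes were mostly missed, and recovery at the spread of these libraries was not measured. Shares at 1000 UMIs are the expected share of cells with a UMI after drawing 1000 UMIs of each cell without replacement (Python 3.11.15). No pair of libraries held identical values.

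The 9 receptors and all gene lists were chosen with earlier results of these data known. All 9 receptors and the sort markers are named, and up to 6 genes of other lists, those with the highest mean CPM; 1 gene that this rule names is not reported here.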

Additional observations from a re-analysis of the deposited data

Results flagged for a closer look

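In groups of 4 libraries, the lowest or highest was compared with the others by Dixon's ratio at its 95% critical value. Of 36 groups of receptor levels and shares, 2 had such a library, and chance alone would give about 1 in 20. The Kit share at 1000 UMIs was 33.6% in Dlk1- replicate 3, below 37.1% to 37.7% in the other Dlk1- libraries (ratio 0.868). The Cd34 share was 0% in Dlk1+ replicate 3, where the other Dlk1+ libraries had 5.56% to 5.72% (ratio 0.973).

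Receptor UMIs also appeared on barcodes outside the comparisons. The barcodes of the other sort carried 10 Kit UMIs among 23663, and own barcodes with under 200 transcripts carried 6 Kit UMIs among 4757. Both are above the limit of 3 UMIs. The number of molecules is small beside the 1135 Kit UMIs of the kept cells.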

How the results depend on the processing

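No receptor that could be tested passed an adjusted p of 0.05 in the 21 fits. The smallest was 0.522 in the fit of thinned cells, which tested only Kit, and 0.548 in the others. Of these, 3 tested 6 receptors, and only the fit without the filter tested Flt3 and Csf2rb. The number of genes called was 2 and became 1 with the replicate block, with at least 2000 transcripts per barcode and with limma-trend (added after seeing the data), and 4 with the 10 barcodes left in; wherever it was 1, Timp3 lost its call and Dlk1 kept it. It ranged from 1 to 19 when a library was left out: 1 without Dlk1+ replicate 2 or Dlk1- replicate 3, 3 without Dlk1+ replicate 3 and 19 without Dlk1+ replicate 4. The measure used to look for pairs gave an r of only 0.037 to 0.064 for same-numbered libraries, each best with its own number. This was taken as too weak to treat them as pairs, but pairing was not excluded. That measure is not the plain correlation of log2 CPM, which was 0.90, 0.72, 0.61 and 0.93 for replicates 1 to 4. Some same-numbered libraries also shared other traits. Own barcodes with under 200 transcripts numbered 57 in Dlk1+ and 60 in Dlk1- replicate 2, against at most 4 in any other library. Gm10800 and Gm26870 were lowest in replicate 4 of both sorts, at 10.1% and 11.7% of transcripts. Without the filter the median of all genes moved to 0.24. Directions of small log2 fold changes turned for Tgfbr2 (-0.014 with median-of-ratios factors, -0.083 without the filter, -0.050 with the replicate block, -0.0016 with plate as a block, -0.040 from 500 transcripts, -0.17 with the 10 barcodes, -0.0028 without Gm10800 and Gm26870, and -0.14 to 0.11 with a library left out), Cd34 (0.080 from 2000 transcripts, 0.037 with the 10 barcodes, and -0.31 to 0.19), Tek (0.00058 from 500 transcripts, and -0.48 to 0.23) and Cxcr4 (-0.091 with limma-trend, and -0.0076 to 0.55). Differences of shares in percentage points turned at 2000 UMIs for Tek (-1.54) and Il6st (-1.64), without thinning for Tek (-3.28), Cxcr4 (-3.11), Ifngr1 (-5.61) and Tgfbr2 (-5.09), from 2000 transcripts for Tek (-0.781) and Il6st (-0.785), and with the 10 barcodes for Cxcr4 (-0.019) and Tgfbr2 (-0.018). With a library left out they ranged from -0.216 to 0.028 for Flt3, -0.402 to 0.798 for Tek, -0.817 to 1.34 for Cxcr4, -0.147 to 4.92 for Il6st, -0.325 to 0.722 for Tgfbr2 and -1.05 to 0.855 for Cd34. The cause was not tested. Kit exceeded Cd34 under all 14 alternatives, by 26.3 to 53.6 points of share and by 3.37 on the log2 CPM scale. Leaving out the myeloid-rich cell (also added after seeing the data) gave 27.7 points and 2 genes called. Thinning to 2000 UMIs left 4 cells of Dlk1+ replicate 3. The edgeR and DESeq2 tests were not run.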

Other observations

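The myeloid-rich cell of Dlk1+ replicate 4 carried 771 UMIs of S100a8, 784 of S100a9 and 161 of Mpo, genes of neutrophils and their precursors. It also held 5 Kit UMIs, 5 Cd48 UMIs, 2 Cxcr4 UMIs and 1 Cd34 UMI, but no Flt3, Csf2rb or Dlk1 UMI. The deepest of the other 540 kept cells had 14443 UMIs.

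In Dlk1+ replicate 3 the order of the sort markers differed from the other libraries: Ly6a (307 CPM, 12 UMIs) lay above Kit (128 CPM, 5 UMIs), and Csf2ra was at 282 CPM (11 UMIs) where the other libraries had 58.0 to 116. Socs3, a feedback inhibitor of gp130 signalling, had a log2 fold change of 1.04 ± 0.30 between the sorts (adjusted p = 0.560 by limma-voom). Stat5a had -0.93 ± 0.36 (adjusted p = 0.701 by limma-voom). Both were picked from the list of signalling genes after their values were seen.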
